A study of Danio rerio with 4 samples.

Results

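The glycolytic enzyme genes described here are the rows of the deposited count table whose zebrafish symbol, ignoring case or a trailing paralog letter, stands on a list of 32 names running from hexokinase to lactate dehydrogenase. Of the 31952 genes in the table, 31 matched, and they cover 10 of the 11 enzyme steps. No row carried the name pgk1. The name table gives many zebrafish genes a human-style symbol without a paralog letter, so 9 symbols are shared by 2 rows each, and which of them is paralog a or b is not known here. Rows with a shared symbol are told apart by their Ensembl identifier.

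Glycolysis splits glucose into pyruvate in the cytosol, and lactate dehydrogenase then turns pyruvate into lactate and restores the NAD+ that the pathway needs. Neutrophils have few mitochondria and take most of their ATP from glycolysis, while fast skeletal muscle uses the same pathway to power short bursts of contraction. Vertebrates keep several forms of most of these enzymes, and in mammals PFKM, ALDOA, PGAM2, ENO3, PKM, HK2 and LDHA are the forms named for, or predominant in, skeletal muscle. The rows with these symbols are called muscle forms below and the remaining rows of the same steps other forms, a sorting by mammalian counterpart that need not hold for each fish paralog.

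All larvae, controls included, came from a cross of the transgenic line ox128, which carries mpo:BirA-Citrine together with bactin:Avi-Cerulean-Rangap, and the line labelled ox130, which carries kita:LexPR-Cerulean along with PcrysB:ECFP-LexOP:mCherry-NRas. The study describes the kita driver for this profiling but gives the allele name ox130 to its mitfa line, so label and study differ on the allele. RNA was taken from streptavidin-captured nuclei of pooled, dissected heads at 5 days post-fertilisation. In this cross the mpo (mpx) promoter drives the biotin ligase that tags neutrophil nuclei, and the kita promoter drives LexPR, a transactivator that switches on mCherry-NRas in kita-expressing melanocytes once mifepristone is added. The 2 control libraries came from larvae given no mifepristone, and for the 2 NRas+ libraries 1 µM mifepristone was added to the water from 24 hpf onwards. Drug and oncogene were thus always given together and cannot be told apart. The comparison asks how the nuclear transcriptome of neutrophils differs once melanocytes express the oncogene.

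Total counts on genes ranged from 30619195 to 42365244 per library. The libraries are labelled neutrophil, yet a list of 41 skeletal muscle marker rows held 29.7% (control 1) and 21.1% (control 2) of the control counts, against 42.3% (NRas+ 1) and 42.6% (NRas+ 2). The 21 neutrophil marker rows summed to between 132.3 and 171 CPM (depth-scaled read counts, with library sizes adjusted by TMM, the trimmed mean of M values), of which lyz, a neutrophil lysozyme, had between 3.002 and 12.6 CPM, and the colony-stimulating factor receptor CSF3R was at or near 0. Higher rows of this list included srgn (17.2 to 36.5 CPM) and CEBPA (21.0 to 28.7 CPM). No row is named mpx, and whether it stands under another symbol was not looked up. No row of any marker list was at 0 in all 4 libraries. Of 29 epidermis marker rows 5 were called higher in NRas+ at an adjusted p under 0.05 (edgeR), against 0.129% of the 20099 genes tested. The marker lists were chosen with earlier results of these data known. Control 2 stood apart in its scaling, with a TMM factor of 1.41 against 0.861 to 0.941 in the other libraries, and its muscle share was the lowest of the 4 before any scaling. The row of the endogenous counterpart of the oncogene, NRAS, had 9.19 and 9.50 CPM in the controls and 23.3 and 17.3 CPM in NRas+ (adjusted p = 0.341). Bulk pulldowns do not tell fewer cells of a type from less RNA per cell.

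Glycolytic genes were on the whole higher in the NRas+ libraries, and the size of the difference varied widely between paralogs of the same enzyme. However, none passed an adjusted p of 0.05 in the main fit. Of the 31 rows, 30 had enough counts for edgeR's quasi-likelihood test. At an adjusted p under 0.05 over all genes tested, 0 were higher and 0 were lower, where 0.129% of the 20099 genes tested were called higher and 0.0398% lower. At an unadjusted p under 0.05, 6 were higher and 0 were lower, against 5.16% and 6.11% of all genes tested. These 6 were PFKM (ENSDARG00000014179), PKM (ENSDARG00000099860), GPI (ENSDARG00000103826), LDHA, ENO1 (ENSDARG00000022456) and ALDOC (ENSDARG00000019702). DESeq2, the tool of the original study, called 1 row, the same PKM row, as higher with an adjusted p of 0.0476, and 1.26% of all genes to which it gave an adjusted p. It gave 7 rows an unadjusted p under 0.05, all higher in NRas+, against 4.46% of all genes. In 15 of the 30 rows both NRas+ libraries lay above both controls, where 20.5% of all genes did, and in 1 row, eno2, both were below, where 21.8% did. The log2 fold change was above 0 in 23 of the 30, against 47.9% of all genes tested, and their median was 0.42, whereas that over all genes tested was -0.04.

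The median depended on the control libraries. Without control 1 it was 0.75, against -0.02 over all genes tested in that fit. Without control 2 it was 0.24, against 0.15 over all genes, so most of the distance between the medians was gone. Both of these fits tested 31 rows, because ALDOC (ENSDARG00000057661) was kept in them and not in the main fit. Of the 30 rows, 23 had a lower CPM in control 2 than in control 1, and in 18 control 2 was the lowest of the 4 libraries. The rows that did not follow the general direction had a mean of at most 25.5 CPM. Rows this low went both ways, with HK1 and pgam1b among those above 0. Of the 7 rows with a log2 fold change below 0, eno2 had a mean of 25.5 CPM and the others at most 8.23 CPM, while all 18 rows above eno2 in mean CPM had a log2 fold change above 0. Transcript lengths were not used, so shares and rankings between rows are of reads and not of transcript numbers.

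**Figure D1:**
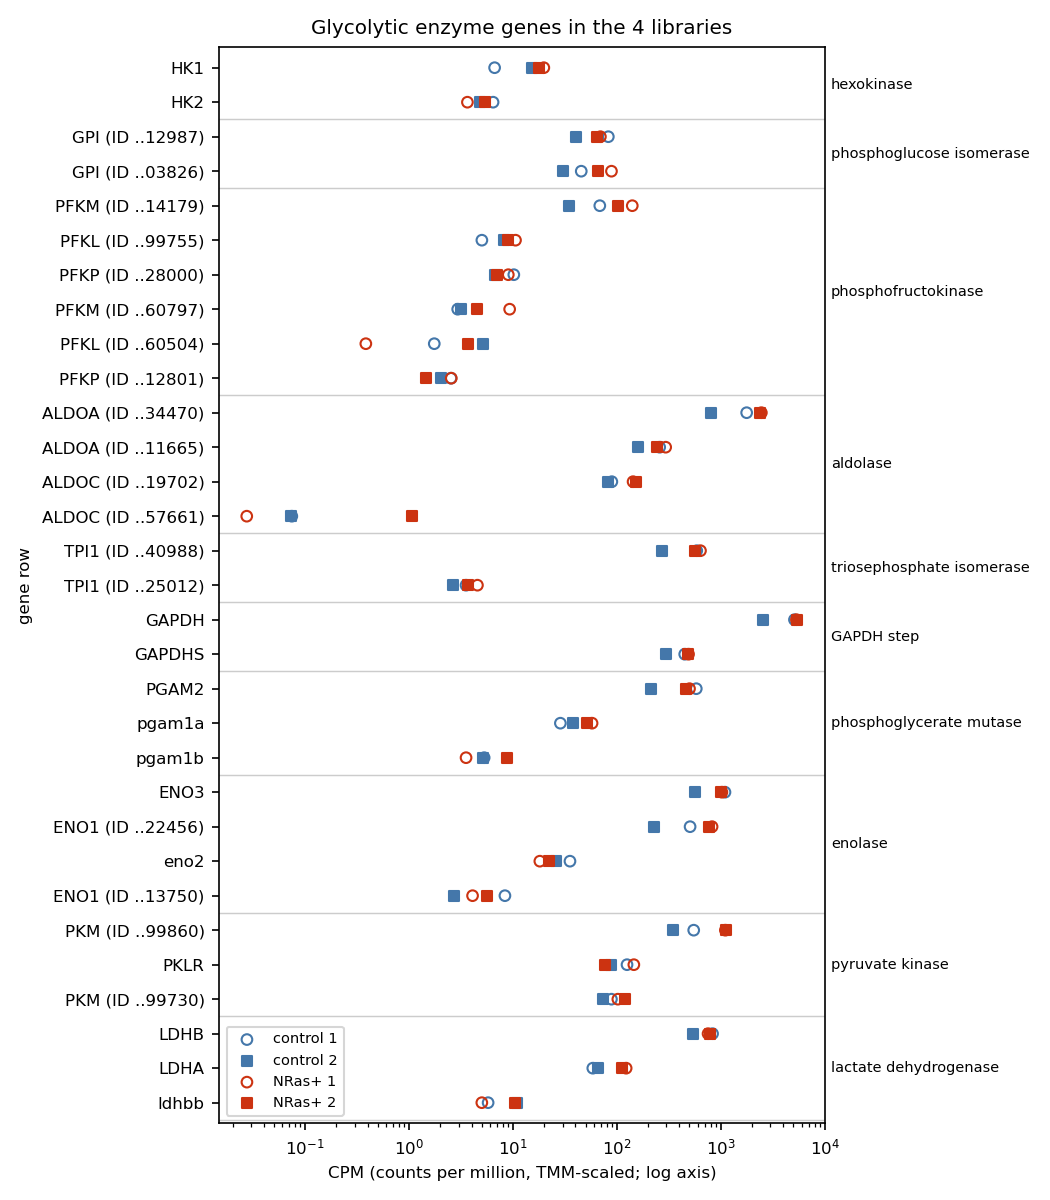
CPM on a log axis for each of the 31 rows, grouped by enzyme step, with control libraries in blue, NRas+ libraries in red, open circles for replicate 1 and filled squares for replicate 2 (rows with a shared symbol carry the last digits of their identifier). In 15 of the 30 rows tested both red points lie to the right of both blue points, and control 2 is the lowest point in 18.

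The first enzyme of the pathway, hexokinase, traps glucose in the cell as glucose 6-phosphate. HK1, the form found in most mammalian tissues, had 6.66 and 15.3 CPM in the controls and 19.8 and 17.7 CPM in NRas+. Both NRas+ values lay above both controls, control 1 being far below the other 3 libraries. The log2 fold change was 0.73 (standard error, SE, 0.47, adjusted p = 0.6), or 0.31 without control 1 and 1.52 without control 2. HK2, whose mammalian counterpart predominates in muscle, had between 3.65 and 6.44 CPM with overlapping groups, and its log2 fold change was -0.29 (SE 0.64). Both genes had few reads, at most 834 counts in a library.

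Phosphoglucose isomerase converts glucose 6-phosphate to fructose 6-phosphate and is encoded by a pair of GPI rows. Their log2 fold changes were unlike in size, but the difference between the rows was not tested. GPI (ENSDARG00000103826) had 45.4 and 30.1 CPM in the controls and 88.8 and 66.2 CPM in NRas+, and its log2 fold change was 1.04 (SE 0.39, unadjusted p = 0.0141, adjusted p = 0.299). GPI (ENSDARG00000012987) had 82.8 and 40.5 CPM in the controls and 69.5 and 65.1 CPM in NRas+, a log2 fold change of 0.14 (SE 0.40). The groups were separate for the former and overlapped for the latter, whose direction turned to -0.28 without control 2. Within each library, and so free of the scaling between libraries, the former row took 35.4% and 42.7% of the GPI counts in controls and 56.1% and 50.4% in NRas+.

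Phosphofructokinase makes the committed step of glycolysis, and its 6 rows comprise pairs for the muscle form PFKM, the liver form PFKL and the platelet form PFKP. PFKM (ENSDARG00000014179), which took most of the reads, had 68.6 and 34.4 CPM in the controls and 140.8 and 102 CPM in NRas+. Its groups did not overlap, and the log2 fold change was 1.25 (SE 0.41, unadjusted p = 0.00648, adjusted p = 0.229), the smallest p among the glycolytic genes. The second PFKM row (ENSDARG00000060797) had 2.94 and 3.15 CPM in the controls and 9.30 and 4.49 CPM in NRas+, with a log2 fold change of 1.17 (SE 0.67, adjusted p = 0.54). The 4 PFKL and PFKP rows lay between 0.384 and 10.6 CPM, with log2 fold changes from -0.87 to 0.52, and only PFKL (ENSDARG00000099755) had both NRas+ values above both controls. As a result the PFKM rows together held 78.6% and 62.9% of the phosphofructokinase counts in controls and 86.9% and 83.5% in NRas+. This difference of 14.5 percentage points compares with a spread of 11.05 (SD, n = 2) between the controls and 2.43 (SD, n = 2) between the NRas+ libraries, and it was 6.65 without control 2 and 22.3 without control 1.

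Aldolase cleaves the 6-carbon sugar into triose phosphates, and here ALDOA, the mammalian muscle form, supplied nearly all of its reads. ALDOA (ENSDARG00000034470) had 1776 and 812.1 CPM in the controls and 2460 and 2388 CPM in NRas+, a log2 fold change of 0.91 (SE 0.60, adjusted p = 0.614). The NRas+ values lay close together above both controls, which themselves differed by more than control 1 did from NRas+, and the log2 fold change was 1.59 without control 1 and 0.47 without control 2. The second ALDOA row (ENSDARG00000011665) overlapped between groups, from 159.3 to 295.1 CPM. ALDOC (ENSDARG00000019702), the brain form in mammals, had 89.5 and 82.7 CPM in the controls and 143.3 and 151.9 CPM in NRas+. Its values were tight within each group, and the log2 fold change of 0.78 (SE 0.37, unadjusted p = 0.0479, adjusted p = 0.439) stayed between 0.74 and 0.85 when any single library was omitted. The remaining ALDOC row (ENSDARG00000057661) had 2 and 4 counts in the controls and 1 and 41 counts in NRas+, too few for the test.

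Triosephosphate isomerase interconverts the triose phosphates. TPI1 (ENSDARG00000040988) took 99.0% to 99.4% of the reads of this step and had 587.7 and 270.6 CPM in the controls and 638.4 and 567.8 CPM in NRas+. Control 1 lay among the NRas+ values and control 2 below them, so the groups overlapped, and the log2 fold change of 0.49 (SE 0.47, adjusted p = 0.741) was 0.06 without control 2 and 1.17 without control 1. The other TPI1 row (ENSDARG00000025012) had at most 4.55 CPM.

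GAPDH, the dehydrogenase that yields the first NADH of the pathway and a frequent reference gene, held the most counts of all glycolytic rows, 0.36% to 0.512% of all counts in a library. It had 5121 and 2564 CPM in the controls and 5351 and 5444 CPM in NRas+. Control 1 and both NRas+ libraries were within a narrow range and control 2 alone was low, so the log2 fold change of 0.49 (SE 0.74, adjusted p = 0.859) was 0.10 without control 2 and was 1.09 without control 1. GAPDHS, the sperm form in mammals, was likewise lowest in control 2, at 449.9, 296.2, 489.8 and 487.9 CPM for control 1, control 2, NRas+ 1 and NRas+ 2, with a log2 fold change of 0.39 (SE 0.43). The ratio of GAPDH to GAPDHS counts was steady, GAPDH taking between 89.6% and 91.9% of their sum.

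Phosphoglycerate kinase, which makes the first ATP of the pathway, has no row among the glycolytic genes as defined. The row named PGK2 (ENSDARG00000054191), looked up after the other values had been seen, had 265.8 and 119.2 CPM in the controls and 326.7 and 353.3 CPM in NRas+ (log2 fold change 0.82, SE 0.44, adjusted p = 0.499). In the next step PGAM2, the muscle form of phosphoglycerate mutase, had 581.5 and 214.9 CPM in the controls and 500.5 and 459.9 CPM in NRas+. The controls thus spanned both NRas+ values, and the log2 fold change of 0.27 (SE 0.48, adjusted p = 0.88) turned to -0.25 without control 2 and was 1.17 without control 1. The other forms pgam1a and pgam1b had log2 fold changes of 0.72 (SE 0.38) and 0.26 (SE 0.63), and pgam1a, from 28.6 and 37.7 CPM to 57.8 and 51.6 CPM, did not overlap between groups.

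Enolase forms phosphoenolpyruvate, and the shares of its main paralogs were separate between the groups. ENO1 (ENSDARG00000022456), the form of most mammalian tissues, had 506.9 and 227.1 CPM in the controls and 824.9 and 767.6 CPM in NRas+. Both NRas+ values were above both controls, and the log2 fold change was 1.12 (SE 0.48, unadjusted p = 0.0316, adjusted p = 0.383), 1.82 without control 1 and 0.67 without control 2. ENO3, the muscle form, had 1098 and 560.8 CPM in the controls and 1026 and 1001 CPM in NRas+. Its groups overlapped, and its log2 fold change of 0.29 (SE 0.51, adjusted p = 0.879) turned to -0.09 without control 2. eno2, the neuronal form in mammals, had 35.4 and 25.9 CPM in the controls and 18.2 and 22.4 CPM in NRas+, a log2 fold change of -0.59 (SE 0.40, adjusted p = 0.625) and -0.34 without control 1, and was the only glycolytic row tested with both NRas+ values below both controls. A second ENO1 row (ENSDARG00000013750) had at most 8.37 CPM.

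Taken as shares of all enolase counts in a library, ENO1 (ENSDARG00000022456) held 30.7% and 27.8% in the controls and 44.0% and 42.7% in NRas+, while ENO3 held 66.6% and 68.7% in the controls and 54.8% and 55.7% in NRas+. The ENO3 share averaged 67.6 ± 1.47% over controls and 55.2 ± 0.672% over NRas+ (SD, n = 2 per group). The difference of -12.4 percentage points exceeded either SD, each taken from 2 libraries only, and was not tested. Omitting any single library left it between -13.4 and -11.4.

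Pyruvate kinase makes the last ATP of glycolysis. PKM (ENSDARG00000099860) had 549.4 and 350.2 CPM in the controls and 1108 and 1132 CPM in NRas+, the largest log2 fold change among the glycolytic genes tested at 1.32 (SE 0.49, unadjusted p = 0.0137, adjusted p = 0.296). Even the lower NRas+ value was far above control 1, and omitting any single library left the log2 fold change between 1.05 and 1.69. The second PKM row (ENSDARG00000099730) had 88.7 and 73.0 CPM in the controls and 102.3 and 118.9 CPM in NRas+ (log2 fold change 0.45, SE 0.37), and PKLR, the liver and red cell form, overlapped between groups from 77.2 to 145.8 CPM. Of all pyruvate kinase counts the first PKM row took 72.0% and 68.5% in controls and 81.7% and 85.2% in NRas+, and the share of each of the other rows was lower in both NRas+ libraries than in either control.

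Lactate dehydrogenase regenerates NAD+ by reducing pyruvate to lactate. LDHA, the form predominant in mammalian fast muscle, had 58.7 and 66.5 CPM in the controls and 122.9 and 112.5 CPM in NRas+, a log2 fold change of 0.91 (SE 0.37, unadjusted p = 0.0227, adjusted p = 0.343). Its groups were tight and separate, and the log2 fold change stayed between 0.84 and 1.03 when any single library was omitted. LDHB, the heart form in mammals, which took most of the reads of this step, had 834.1 and 534.9 CPM in the controls and 754.8 and 789.2 CPM in NRas+. These groups overlapped, with a log2 fold change of 0.17 (SE 0.47, adjusted p = 0.934), or -0.09 without control 2. ldhbb had between 5.02 and 11 CPM in overlapping groups. The LDHA share of lactate dehydrogenase counts was 6.53% and 10.9% in controls and 13.9% and 12.3% in NRas+, a difference of 4.43 percentage points that was 2.27 without control 1.

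**Figure D2:**
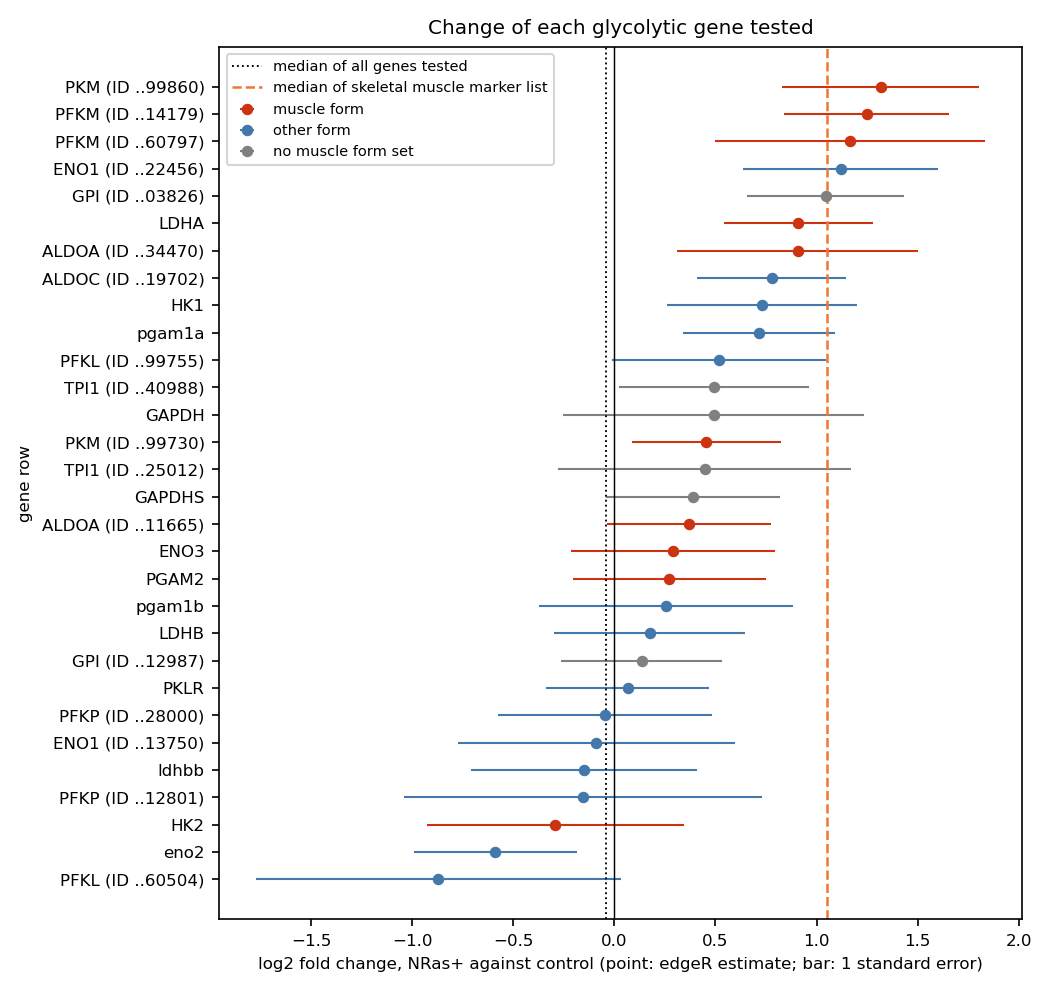
Log2 fold change of each of the 30 rows tested (x axis, NRas+ against control, edgeR estimate with 1 standard error), ordered by size, with muscle forms in red, other forms in blue and steps without a set muscle form in grey. Estimates run from -0.87 for a PFKL row to 1.32 for a PKM row, and most lie left of the dashed line, the median of 1.05 over the skeletal muscle marker rows.

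Muscle forms and other forms were then set side by side. The median log2 fold change was 0.68 over the 10 muscle rows, with 9 above 0 and 6 with separate groups, all of these higher in NRas+. Over the 14 other rows tested it was 0.12, with 8 above 0, 1 (eno2) with both NRas+ values below both controls and 5 with both NRas+ values above both controls. Of all genes tested, 47.9% had a log2 fold change above 0, 20.5% had both NRas+ values above both controls and 21.8% had both below. The 6 rows of steps without a set muscle form had a median of 0.47. With PKM, LDHA and HK2 left out of the muscle forms, the remaining 6 muscle rows had a median of 0.64. Of these, 3 had both NRas+ values above both controls. Leaving out single libraries moved the muscle median between 0.40 (without control 2) and 1.00 (without control 1), and the other median between 0.20 and 0.31. The other rows were not the same in all of these fits. ALDOC (ENSDARG00000057661), not tested in the main fit, was among them without control 1, control 2 or NRas+ 1. The classes also differed in reads. Among the muscle rows only HK2 and PFKM (ENSDARG00000060797) lay below eno2 in mean CPM. Among the other rows only ALDOC (ENSDARG00000019702), pgam1a, ENO1 (ENSDARG00000022456), PKLR and LDHB lay above it. Their log2 fold changes were 0.78, 0.72, 1.12, 0.06 and 0.17. What part the number of reads has in the medians was not tested. These medians are descriptions of sets of genes, and their difference was not tested.

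Within single steps the muscle forms did not take a uniformly larger share of the counts. For each of the following, their NRas+ shares lay above the control shares: phosphofructokinase, pyruvate kinase and lactate dehydrogenase. It was lower in both for enolase and for hexokinase, where HK2 took 49.1% and 23.9% in controls and 15.5% and 23.1% in NRas+. The hexokinase difference of -17.2 percentage points was -4.56 without control 1 and -29.8 without control 2. The muscle share overlapped for aldolase, at 92.2% to 95.8%, and for phosphoglycerate mutase, at 83.4% to 94.5%. Among aldolase rows, ALDOA (ENSDARG00000034470) took 83.6% and 77.0% in controls and 84.9% and 85.8% in NRas+.

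**Figure D3:**
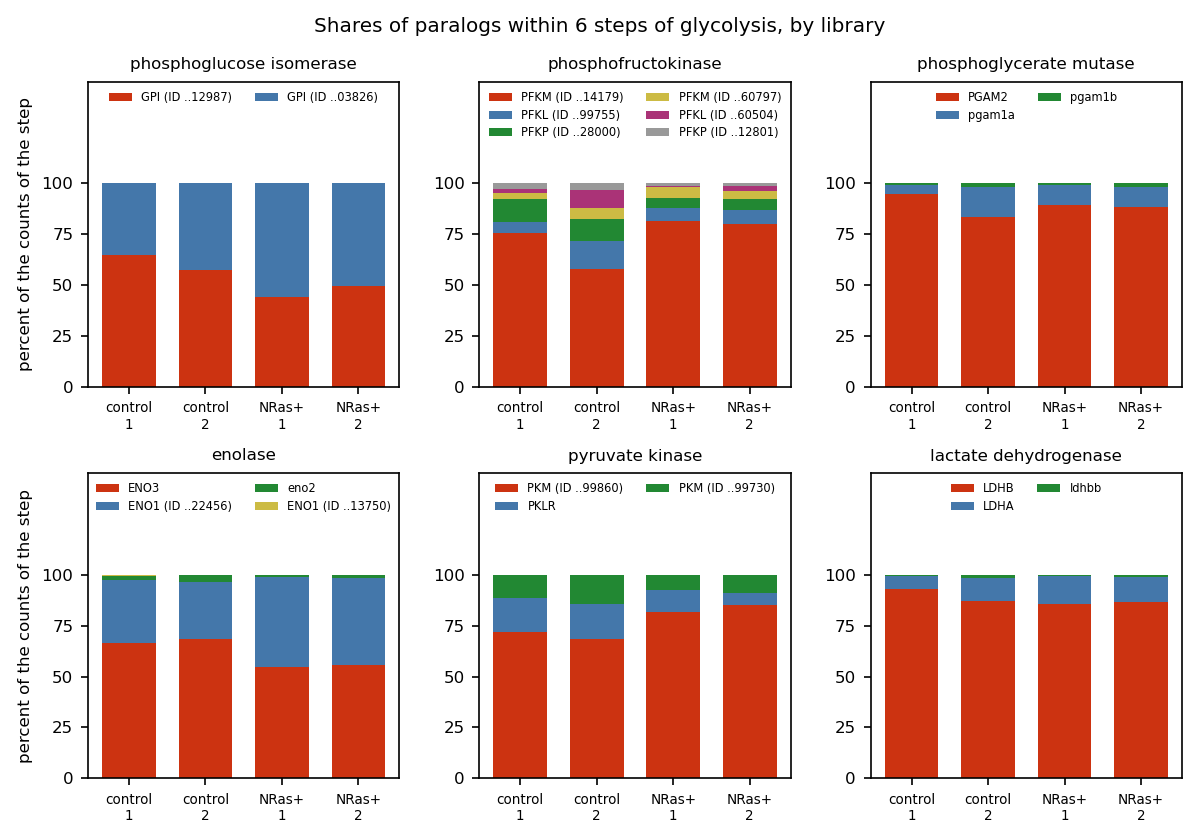
Stacked bars give the percent of the counts of an enzyme step that fell on each of its rows, in each of the 4 libraries, for 6 steps. In the enolase panel the ENO3 part takes 66.6% and 68.7% in the controls and 54.8% and 55.7% in NRas+, and in the pyruvate kinase panel the largest part goes from 72.0% and 68.5% to 81.7% and 85.2%.

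Because muscle RNA was abundant and unequal between the groups, the glycolytic genes were set beside the skeletal muscle marker list. In the same fit, 34 of its 41 rows had a log2 fold change above 0, against 47.9% of all genes tested. Their median was 1.05, and 13 were higher and 1 lower at an unadjusted p under 0.05, against 5.16% and 6.11% of all genes. The glycolytic rows together held 1.09% and 0.918% of all counts in the controls, against 1.24% and 1.33% for NRas+ (two-sided exact permutation test, p = 0.333, the smallest that 2 against 2 libraries allow). With the muscle list taken out of the denominator only, their share was 1.55% and 1.16% in controls and 2.15% and 2.32% in NRas+. The muscle forms stayed among the glycolytic counts, so this share is not free of muscle RNA. Per 1000 counts on the muscle list, the order was the opposite, with 36.7 and 43.5 glycolytic counts in controls and 29.3 and 31.2 in NRas+ (p = 0.333 in the same exact permutation test). The neutrophil marker rows summed to 132.3 and 139.8 CPM in controls and 171 and 167.2 CPM in NRas+. Of the 17 tested, 13 had a log2 fold change above 0, against 47.9% of all genes tested. Among these, nccrp1 had 9.94 and 19.3 CPM in controls and 29.2 and 29.8 CPM in NRas+. Those below 0 were srgn, adam8a, il6r and CXCR4 (ENSDARG00000041959). As shares of unscaled counts the neutrophil marker rows held 0.0116% (control 1) and 0.0196% (control 2), against 0.0147% (NRas+ 1) and 0.0157% (NRas+ 2). These shares overlapped between the groups, control 2 being the highest. Epidermis markers had a median of 0.67, with 21 of 29 above 0, and summed to 5431 and 2513 CPM in controls and 8128 and 3588 CPM in NRas+. Macrophage markers had a median of 0.76, with 7 of 13 tested above 0, and summed to 63.2 and 48.6 CPM in controls and 103.3 and 86.6 CPM in NRas+. The medians were 0.06 for erythrocyte, -0.05 for neuron and -0.56 for melanocyte markers. What part RNA of any of these cell types has in the glycolytic values was not tested.

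Genes around glycolysis were taken in groups by role, and differences between groups were not tested. Of 86 rows for transport, regulation, gluconeogenesis, glycogen, pyruvate use and the pentose phosphate pathway, 82 were tested, of which 0 passed in either direction in edgeR's quasi-likelihood test, 12 were higher and 0 lower at an unadjusted p under 0.05 (5.16% and 6.11% over all genes), and 2 were higher in DESeq2 (1.26% over all genes), the rows of PDK2 and pdha1a named next. Their median log2 fold change was 0.39. The smallest p belonged to genes of the pyruvate dehydrogenase step. PDK2 (ENSDARG00000020876), a kinase that switches off pyruvate dehydrogenase, had 31.1 and 55.3 CPM in controls and 94.3 and 168.5 CPM in NRas+, a log2 fold change of 1.59 (SE 0.42, adjusted p = 0.117), which passed at 0.0263 without control 2. pdha1a, a subunit of pyruvate dehydrogenase itself, had 60.1 and 58.6 CPM in controls and 135.2 and 166.2 CPM in NRas+, a log2 fold change of 1.34 (SE 0.37, adjusted p = 0.144). Both were thus higher together, the enzyme and its inhibitor. Among the 14 pyruvate rows tested the median was 0.63 and 8 had both NRas+ values above both controls, where 20.5% of all genes did.

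Glycogen genes gave the highest median of the groups, 0.88 over 19 rows, with 9 rows in which both NRas+ values exceeded both controls (20.5% over all genes) and 0 with the reverse (21.8% over all genes). FBP2, the muscle fructose bisphosphatase of gluconeogenesis, had 59.8 and 38.5 CPM in controls and 138.5 and 102.5 CPM in NRas+, and a log2 fold change of 1.301 (SE 0.39, adjusted p = 0.183). It was among the 3 of 6 gluconeogenesis rows with both NRas+ values above both controls. Glucose and lactate transport was the only group with a median below 0, at -0.20 over 13 rows, of which 5 had both NRas+ values below both controls (21.8% over all genes). A further 3 had both above, a share close to the 20.5% of all genes.

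The 3 rows with the smallest p in the lower direction had low counts. SLC16A1 (ENSDARG00000068572), a monocarboxylate transporter that carries lactate, had 3.42 and 4.96 CPM in controls and 0.905 and 1.92 CPM in NRas+ (log2 fold change -1.60, SE 0.85, adjusted p = 0.499). The related SLC16A7 (ENSDARG00000098258) had 6.66 and 9.32 CPM in controls and 1.56 and 5.97 CPM in NRas+, with a log2 fold change of -1.10 that was -0.42 without NRas+ 1 and -2.33 without NRas+ 2. Rows of SLC16A3, of the same family, went the other way. SLC16A3 (ENSDARG00000045051) had 3.09 and 6.26 CPM in controls and 10.3 and 8.10 CPM in NRas+. Its log2 fold change was 0.91 (SE 0.57, adjusted p = 0.595). SLC16A3 (ENSDARG00000028583) had at most 1.23 CPM and a log2 fold change of 1.34, also with both NRas+ values above both controls. hif1aa, a paralog of the hypoxia factor that activates glycolytic genes in mammals, had 5.40 and 1.87 CPM in controls and 0.329 and 1.42 CPM in NRas+ (log2 fold change -1.91, SE 1.03, adjusted p = 0.511), whereas HIF1A (ENSDARG00000034293) lay between 46.5 and 73.6 CPM with overlapping groups. For hif1aa the log2 fold change ranged from -3.34 without NRas+ 2 to -1.06 without control 1. Among the transport rows with both NRas+ values below both controls, BSG had more reads. It had 87.8 and 85.0 CPM in controls and 52.6 and 63.8 CPM in NRas+ (log2 fold change -0.57, SE 0.37, adjusted p = 0.6). Its log2 fold change stayed between -0.68 and -0.43 when any single library was omitted. None of these rows passed the test.

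**Figure D4:**
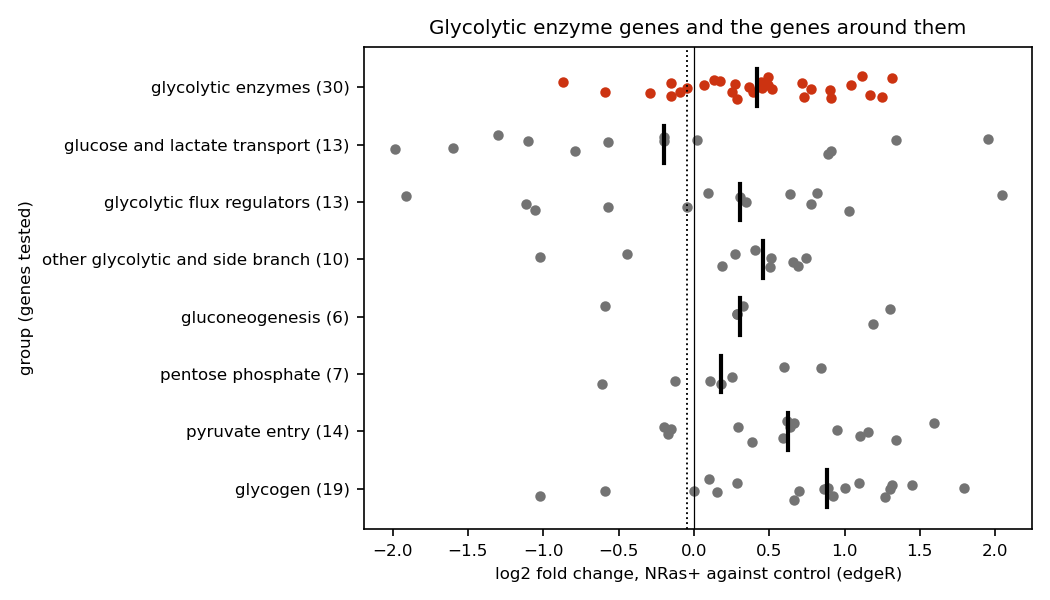
Each point is the log2 fold change (x axis, NRas+ against control, edgeR) of a tested gene, in rows for the 30 glycolytic enzymes and 7 groups around them, with a black bar at each median and a dotted line at the median of all genes tested. The bar stands at 0.42 for the glycolytic enzymes, at 0.88 for glycogen genes and at -0.20 for glucose and lactate transport.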

How the data were processed

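Nuclear RNA of 2 control and 2 NRas+ libraries was amplified with SMART-seq v4. The authors mapped reads with STAR 2.4.2a to danRer10 and assigned them to genes by featureCounts. The deposited table holds raw, unpooled counts for each Ensembl gene. The labels name a reverse strand and the methods standard parameters, so the strand setting used is not known, and counts of near-identical paralogs and overlapping genes are uncertain. Depth ranged from 30619195 to 42365244 counts. Libraries were amplified from little RNA, so counts are not independent molecules. The study, which reports more replicates than the 2 libraries per group used here, describes them as biological, from independent experiments on pooled larvae. Elsewhere it calls them technical. The labels do not say which, so p-values may measure technical spread only.

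Symbols came from a table that paired 26121 of 31952 genes. Genes kept by filterByExpr were scaled by TMM and tested with edgeR 4.0.16 (quasi-likelihood, Benjamini-Hochberg over 20099 genes) in R 4.3.3. CPM use the TMM-scaled library size, and standard errors are the log2 fold change over the square root of F. In simulated counts of this comparison, 139 of 200 genes with a log2 fold change of 3 were recovered, with 9 false calls among 18825 genes tested. Library shares were compared by exact permutation (scipy 1.17.1). Values are given in full for rows with an unadjusted p under 0.05 and the row with the most counts of each step, and for the 3 pathway genes with the smallest p in each direction. eno2, HIF1A, PGK2, BSG, SLC16A3, srgn, CEBPA, nccrp1, adam8a, il6r and CXCR4 were added after values were seen.

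The members, lists and tests were chosen with earlier results of these data known. Alternatives were DESeq2 1.42.0 without prior, the legacy quasi-likelihood fit, RLE factors, TMM without muscle rows and members, no filter, at least 10 counts in every library, a replicate block and leaving out each library. For the median of the muscle forms, PKM, LDHA and HK2 were also left out. Coordinates were left out, since the available annotation uses another assembly.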

Additional observations from a re-analysis of the deposited data

How the results depend on the processing

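Of the 30 glycolytic rows tested, 11 changed the sign of their log2 fold change in a fit without 1 library. Most values of the genes named in full kept their direction and their side of the threshold: of 231 values of 21 named genes under the alternatives, 223 did. None of these named genes passed the threshold in the main fit. Without control replicate 2 the log2 fold changes of GPI (ENSDARG00000012987, -0.278), PGAM2 (-0.254), ENO3 (-0.0946) and LDHB (-0.0907) turned below 0, and without control replicate 1 they were 0.746, 1.17, 0.866 and 0.542. The other 4 became calls, 3 with DESeq2 (PKM, PDK2 and pdha1a) and 1 without control replicate 2 (PDK2). Over all genes, 26 were higher and 8 lower. DESeq2 gave 233 and 146, the legacy fit 10 and 0, the filter of 10 counts in every library 88 and 64, and the replicate block 7 and 0, while 2 were lower when genes were not filtered. With each library left out in turn they ran from 6 to 88 and from 0 to 263. Among glycolytic rows DESeq2 called 1 higher and among genes around glycolysis 2, and leaving out single libraries gave 0 to 1 of the latter. The cause was not tested.

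The median of the muscle forms ranged from 0.40 to 1.00 and that of the other forms, 0.12 with all libraries, from 0.20 to 0.31 with each library left out. The other forms included ALDOC (ENSDARG00000057661) in the fits without control 1, control 2 or NRas+ 1, and not in the main fit. The difference in the share of counts on glycolytic rows, 0.28 percentage points, was 0.874 with counts outside the muscle list as the denominator, and -9.88 per 1000 counts on the muscle list, a denominator added after seeing the data. The difference in the muscle share ran from -1.003 to 2.63 percentage points for aldolase and from -5.76 to 5.35 for phosphoglycerate mutase with each library left out.

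The replicate block, which treats equal numbers as a pair, left 0 glycolytic calls and a median of 0.43. The replicate 1 minus replicate 2 difference had a correlation of 0.147 between the groups over 20099 genes and of 0.424 over the 30 glycolytic rows tested, across 2 pairs, and no label says that a number marks a shared clutch. Power at the size of the differences seen here was not tested.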
